A study of Mus musculus with 14 samples.

Results

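The AP-1 subunit genes and other immediate early genes followed here were measured in 14 RNA-seq libraries of sorted mouse splenic CD4 T cells. The genes are Fos, Fosb, Fosl2, Jun, Junb, Jund, Atf3, Dusp1, Zfp36 and Ier2. They were chosen by gene symbol, with earlier results of these data known, and are 10 of the 26683 symbols counted. Of these, 9 had enough counts to be among the 13427 genes tested, and Atf3 did not. The libraries came from 8-month-old female mice, 4 C57BL/6J (B6) and 3 of the lupus-prone congenic strain TC, labelled B6.NZM-Sle1NZM2410/AegSle2NZM2410/AegSle3NZM2410/Aeg/LmoJ, which carries the Sle1, Sle2 and Sle3 intervals of NZM2410 on a B6 background. B6 carries none of the 3 intervals, and the labels give no treatment for any group. From each mouse a follicular helper population (Tfh: CD4+, CD44+, CD162 low or negative, PD-1+) and a naive population (Tn: CD4+, CD44-) gave 1 library each. The 4 groups were therefore B6 Tfh (n = 4), B6 Tn (n = 4), TC Tfh (n = 3, mice 1, 2 and 4) and TC Tn (n = 3, the same mice). For the Tn samples, titles and cell type were followed, since their source field names follicular helper cells instead.

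Totals ran from 15162309 to 20191558 counts per library. The 6 Tfh markers summed to 2276 to 2613 CPM in B6 Tfh and 1949 to 2321 in TC Tfh, against 97.2 to 127 in the Tn libraries of both strains. The 6 naive markers were highest in the Tn libraries (6113 to 8882 CPM, against 2279 to 2742 in Tfh). CPM are counts scaled to a library of 1000000, with the total of each library corrected by its TMM factor. The labels give no date of sorting or sequencing, so a difference in handling between the strains and a difference of strain cannot be told apart. In sorted bulk RNA, a change in the share of cells carrying a transcript and a change in transcript per cell cannot be told apart either.

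AP-1 is a dimeric transcription factor of the basic leucine zipper (bZIP) class. FOS proteins must pair with JUN proteins to bind DNA, whereas JUN proteins also pair with each other. The genes of both families are immediate early genes: stimulation of a resting cell raises their transcripts within minutes, through kinases and transcription factors already present, and the transcripts are short-lived. In T cells, AP-1 acts with NFAT downstream of the antigen receptor and costimulation. Dusp1 encodes a phosphatase that inactivates MAP kinases, and Zfp36 encodes tristetraprolin, which binds AU-rich elements and speeds the decay of messenger RNAs.

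Genome positions are those of build mm10 (GRCm38) with GENCODE M21. Fos lies at chr12:85473890-85477273 on the plus strand, Jun at chr4:95049034-95052222 on the minus strand and Fosb at chr7:19302696-19310051 on the minus strand. Junb, Jund and Ier2 lie on chromosome 8, Zfp36 on chromosome 7, Fosl2 on chromosome 5, Dusp1 on chromosome 17 and Atf3 on chromosome 1. Sle1, Sle2 and Sle3 are known to map to chromosomes 1, 4 and 7, so Atf3, Jun, Fosb and Zfp36 share a chromosome with an interval. Whether they lie inside it was not analysed here. Jun, Junb, Jund, Atf3, Dusp1 and Zfp36 overlap a gene on the opposite strand. The most abundant of these were Prdx2 beside Junb, with up to 115 CPM, and Ergic1 beside Dusp1, with up to 136 CPM. The strand setting of the counting is not given in the sources used here.

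The 5 members whose transcripts differed most between the strains in both cell types are shown by the 150 bases before their RefSeq start site (GRCm38.p6), 5′ to 3′ on the strand of the gene. Capitals mark the letters TGACG, the core of the cyclic AMP response element, and TGACNTCA, the full element with any middle base. They show which early promoters carry these letters close to the start.
Fos, chr12:85473740-85473889, plus strand: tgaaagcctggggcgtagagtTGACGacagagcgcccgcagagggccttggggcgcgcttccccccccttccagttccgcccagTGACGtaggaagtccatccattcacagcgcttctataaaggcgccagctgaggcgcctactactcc
Fosb, chr7:19310046-19310195, minus strand: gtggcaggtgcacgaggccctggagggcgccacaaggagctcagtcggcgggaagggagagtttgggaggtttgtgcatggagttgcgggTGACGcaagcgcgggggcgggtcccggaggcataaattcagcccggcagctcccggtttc
Jun, chr4:95052223-95052372, minus strand: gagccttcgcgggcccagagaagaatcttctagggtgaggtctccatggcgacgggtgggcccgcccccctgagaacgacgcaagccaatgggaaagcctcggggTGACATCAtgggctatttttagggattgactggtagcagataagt
Junb, chr8:84978749-84978898, minus strand: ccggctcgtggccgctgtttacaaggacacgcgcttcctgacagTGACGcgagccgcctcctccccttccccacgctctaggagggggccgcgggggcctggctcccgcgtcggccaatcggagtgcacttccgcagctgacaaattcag
Dusp1, chr17:26508473-26508622, minus strand: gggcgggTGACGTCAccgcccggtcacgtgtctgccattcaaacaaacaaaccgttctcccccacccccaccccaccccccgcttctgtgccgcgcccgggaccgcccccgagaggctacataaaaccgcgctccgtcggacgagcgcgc

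In the 250 bases before the start, on both strands, TGACG was present in 5 of the 9 members with a RefSeq promoter (Fos, Fosb, Junb, Dusp1 and Atf3), against 17.8% of 32851 mouse promoters. In Fos it began at 2 places, 129 and 66 bases before the start, in Fosb at 60 bases and in Junb at 106 bases. TGACNTCA was present in Jun, beginning 45 bases before the start, and in Dusp1, at 143 bases, against 7.49% of promoters. In Dusp1 it contains TGACG. Each of the 5 genes printed thus held one or the other, as did Atf3, which had too few counts to be tested. The windows of Fosl2, Jund and Zfp36 held neither. Whether these letters go with the strain difference was not tested. TGANTCA, a form of the letters bound by FOS and JUN dimers, was in none of the 9 windows, against 6.75% of promoters. Its absence does not show that the windows lack AP-1 sites, since AP-1 dimers can also bind TGACNTCA, held by Jun and Dusp1. A CArG box, the element of serum response factor, was found in Zfp36 (1.47% of promoters), and TATAAA, searched on the gene's strand, in Fos at 33 bases (7.59%). Elements more than 250 bases before the start, in Fos or any other member, were not searched. Ier2 had no entry. Except for Fos and Jun, the RefSeq start is not the outermost GENCODE start, and it lies farthest from it for Dusp1 and Atf3. For Junb and Jund the RefSeq start lies before the GENCODE start, so their windows end short of the GENCODE gene. The window of Jund ends at chr8:70697738, before the GENCODE start at 70698949, so its lack of these letters does not describe that start. These matches describe letters only.

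The first comparison asked how the members differed between TC and B6 Tfh cells. Counts of Fos, Fosb and Jun were 57.9 to 79.9 times higher in TC, those of Dusp1 11.5 times, and those of Junb, Jund and Zfp36 1.71 to 3.69 times. Of the 9 members tested, 7 were called higher and none lower (edgeR quasi-likelihood test, Benjamini-Hochberg adjusted p below 0.05), where 50.7% of all genes tested were called, 24.7% higher and 25.9% lower. No member was lower at an unadjusted p below 0.05, and DESeq2 made the same count of 7 and 0. The median log2 fold change was 1.89 over the 9 members and −0.02 over all genes tested. For the same 7 members every TC Tfh library lay above every B6 Tfh library, which was so for 24.3% of all genes. Since the members were chosen with earlier results of these data known, these shares describe them and carry no test.

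The same comparison in Tn cells gave 8 members higher and 0 lower, where 51.9% of all genes were called, 25.8% higher and 26.1% lower. The count at an unadjusted p was again 8 and 0, as was that of DESeq2. The median log2 fold change was 2.72 over the members and −0.01 over all genes tested. TC and B6 Tn libraries did not overlap for 7 members, all higher in TC, where 27.4% of all genes were higher and 28.1% lower without overlap. Both comparisons use different libraries but the same 7 mice.

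**Figure D1:**
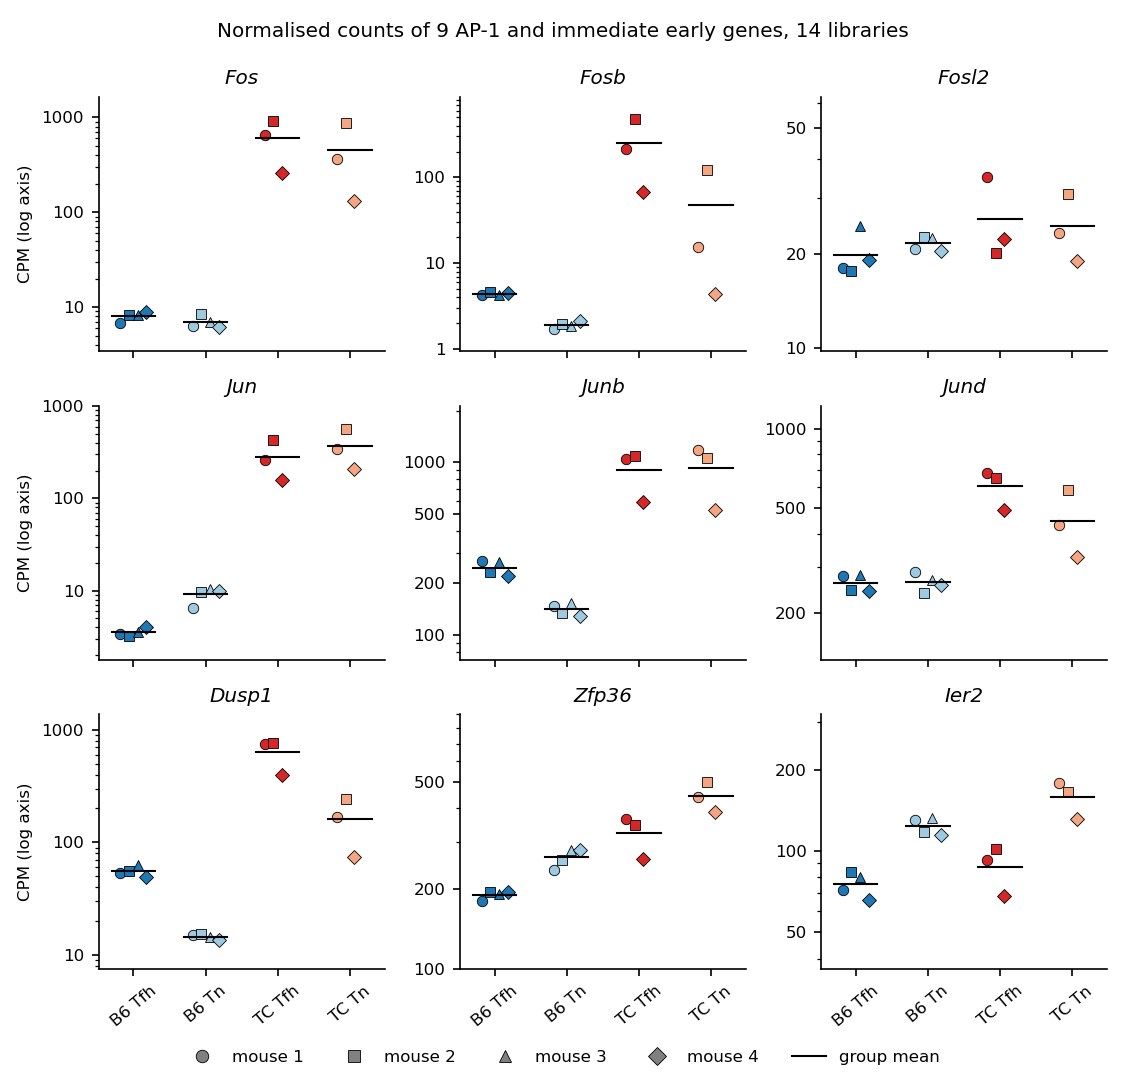
CPM (log axis, TMM-scaled) of the 9 members tested in each of 14 libraries. Columns are the 4 groups, symbols are mice and bars are group means. Fos, Fosb and Jun are below 11 CPM in all 8 B6 libraries, and in TC mouse 4 has the lowest symbol of 8 members in Tfh and of all 9 in Tn.

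Fos, the best known dimer partner of JUN, was at 6.83, 8.24, 8.31 and 8.89 CPM in the Tfh libraries of B6 mice 1 to 4. In TC Tfh it was at 649, 916 and 262 CPM in mice 1, 2 and 4. Every TC library was above every B6 library, and the lowest TC library was 29.5 times the highest B6 library. The fitted log2 fold change was 6.24 ± 0.69 (SE; 75.5-fold, adjusted p = 3.92e-05), the 12th highest of the 13427 genes. In Tn, Fos was at 6.34, 8.44, 6.96 and 6.17 CPM in B6 against 361, 867 and 131 CPM in TC. These groups did not overlap either, at 6.02 ± 0.7 (64.9-fold, adjusted p = 3.95e-05). Without TC mouse 2, the highest library, the Tn value was 5.14.

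Fosb, which has a short splice form that accumulates after repeated stimulation, had the lowest level per kilobase of the 9 members tested in B6. Its B6 Tfh values were 4.25, 4.59, 4.23 and 4.47 CPM, and its TC Tfh values were 214, 483 and 67.8 CPM. All TC Tfh libraries were above B6, with a log2 fold change of 5.86 ± 1.05 (57.9-fold, adjusted p = 0.000981) that became 5.02 without mouse 2. In Tn, B6 libraries held 1.7, 1.97, 1.87 and 2.13 CPM and TC libraries 15.6, 122 and 4.34 CPM. The groups did not overlap, but mouse 4 was only 2.04 times the highest B6 library and mouse 2 was 28.2 times mouse 4. The Tn log2 fold change of 4.6 ± 1.29 (24.3-fold, adjusted p = 0.0121) depended on mouse 2: without its TC Tn library the value was 2.38 and adjusted p = 0.113, and without both of its libraries the value was again 2.38 and adjusted p = 0.0353. With mouse as a block in limma voom the value was 3.30 and adjusted p = 0.208.

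Fosl2 encodes Fra-2, a FOS protein without the transactivation domain of Fos. It was at 17.6 to 24.5 CPM in B6 Tfh and at 35, 20.1 and 22.3 CPM in TC Tfh, which overlapped. In Tn, the B6 range was 20.4 to 22.6 CPM and the TC values were 23.2, 31 and 19 CPM, which overlapped as well. The log2 fold change was 0.39 ± 0.2 in Tfh (adjusted p = 0.118) and 0.17 ± 0.2 in Tn (adjusted p = 0.493), so neither passed. The Tfh value was 0.52 (adjusted p = 0.0407) without B6 Tfh mouse 3 and 0.55 (adjusted p = 0.0393) without TC Tfh mouse 2. Fosl1, the other FOS family gene and not a member, stayed at or below 0.4 CPM in every library.

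Jun, a target of the JNK kinases and of AP-1 itself, was at 3.39, 3.19, 3.55 and 4.06 CPM in B6 Tfh. In TC Tfh it was at 264, 428 and 160 CPM, so that the lowest TC library was 39.5 times the highest B6 library. The log2 fold change was 6.32 ± 0.48 (79.9-fold, adjusted p = 2.93e-06), rank 11 among all genes tested. In Tn, B6 held 6.44, 9.65, 10.5 and 9.82 CPM and TC held 343, 565 and 207 CPM. The lowest TC Tn library was 19.8 times the highest B6 one, and the log2 fold change was 5.36 ± 0.43 (41-fold, adjusted p = 2.87e-06).

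Junb, a weaker activator that can restrain Jun and partners BATF in T helper cells, was already abundant in B6. Its B6 Tfh values were 267, 232, 264 and 220 CPM and its TC Tfh values 1044, 1092 and 591 CPM. In Tn, B6 held 148, 135, 153 and 129 CPM and TC held 1188, 1063 and 533 CPM. Both pairs of groups were separate, with log2 fold changes of 1.89 ± 0.26 in Tfh (3.69-fold, adjusted p = 0.000143) and 2.72 ± 0.27 in Tn (6.57-fold, adjusted p = 9.01e-06).

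Jund is the JUN gene with the steadiest expression in resting cells. It was at 277, 245, 278 and 243 CPM in B6 Tfh and at 681, 650 and 492 CPM in TC Tfh, a log2 fold change of 1.22 ± 0.17 (2.33-fold, adjusted p = 7.68e-05). In Tn it was at 287, 239, 266 and 255 CPM in B6 against 433, 587 and 326 CPM in TC, a log2 fold change of 0.78 ± 0.17 (1.71-fold, adjusted p = 0.00172). The groups were separate in both cell types, by the least in Tn, where mouse 4 was 1.14 times the highest B6 library.

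Atf3, a stress-induced bZIP factor that dimerises with JUN proteins, was close to the detection limit. It had 11 counts over the 4 B6 Tfh libraries, 9 over B6 Tn, 5 over TC Tfh and 3 over TC Tn, with at most 4 counts in any library. A floor of 3 counts corresponds to 0.15 to 0.191 CPM, and no fold is given.

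Dusp1 was at 53.5, 56.1, 62.6 and 48.8 CPM in B6 Tfh and at 742, 763 and 399 CPM in TC Tfh. In Tn it was at 14.9, 15.3, 14.3 and 13.6 CPM in B6 against 169, 244 and 73.9 CPM in TC. The groups were separate in both, with nearly equal log2 fold changes of 3.52 ± 0.35 (11.5-fold, adjusted p = 1.79e-05) in Tfh and 3.48 ± 0.39 (11.1-fold, adjusted p = 2.66e-05) in Tn.

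Zfp36 was at 180, 194, 191 and 194 CPM in B6 Tfh and at 365, 347 and 258 CPM in TC Tfh. In Tn it was at 235, 255, 280 and 278 CPM in B6 against 441, 501 and 387 CPM in TC. All TC libraries were above all B6 libraries of their cell type, and the log2 fold changes were small and precise: 0.77 ± 0.11 in Tfh (1.71-fold, adjusted p = 4.46e-05) and 0.76 ± 0.11 in Tn (1.69-fold, adjusted p = 3.42e-05).

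Ier2 encodes a nuclear protein of the early response. It was at 71.6, 83.5, 80.1 and 66.1 CPM in B6 Tfh and at 92.5, 102 and 68.3 CPM in TC Tfh, where the groups overlapped and the log2 fold change of 0.22 ± 0.14 did not pass (adjusted p = 0.204). In Tn it was at 130, 118, 132 and 115 CPM in B6 against 178, 165 and 131 CPM in TC, with overlap by mouse 4. The Tn value of 0.35 ± 0.13 (1.27-fold) passed narrowly (adjusted p = 0.0397). It no longer passed when any of 6 libraries was left out (B6 Tfh 1, B6 Tn 1, 2 and 4, TC Tn 1 and 2), with adjusted p from 0.0501 to 0.175, and the Tfh value passed without TC Tfh mouse 4 (adjusted p = 0.0145).

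**Figure D2:**
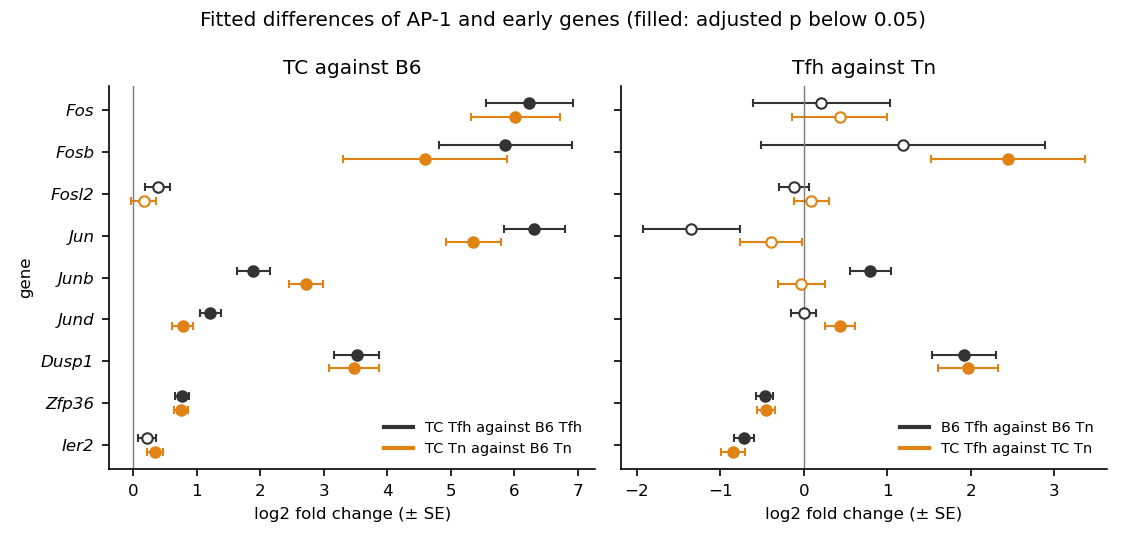
Fitted log2 fold changes of the 9 members (points) with standard errors (bars). Left, TC against B6 in Tfh and in Tn; right, Tfh against Tn in B6 and in TC; filled points have an adjusted p below 0.05. Fos, Fosb and Jun lie between 4.6 and 6.32 on the left, and the values on the right lie between −1.35 and 2.45.

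The 3 TC mice differed in level, with the same mouse mostly lowest while the highest mouse varied between members and cell types. Mouse 4 was the lowest TC mouse for 8 of the 9 members tested in Tfh and for 9 in Tn, and for 8 in both. Over all genes tested, mouse 4 was lowest for 34.2% in Tfh and 36.4% in Tn. Mouse 2 was the highest for 6 members in Tfh and 7 in Tn, and mouse 1 for the rest. The share of all genes with mouse 2 highest was not computed. The highest TC library exceeded the lowest by 3.49 times for Fos in Tfh and 6.64 times in Tn, and by 1.42 and 1.3 times for Zfp36. The B6 libraries of a cell type spread by at most 1.63 times for any tested member. Tfh and Tn libraries of a mouse share that mouse, and the members are not independent of one another.

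Summed over the 10 members, transcripts took 0.0834% to 0.0944% of all counts in B6 Tfh and 0.0761% to 0.0832% in B6 Tn. In TC Tfh the shares were 0.423%, 0.502% and 0.246% in mice 1, 2 and 4, and in TC Tn 0.304%, 0.4% and 0.178%.

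**Figure D3:**
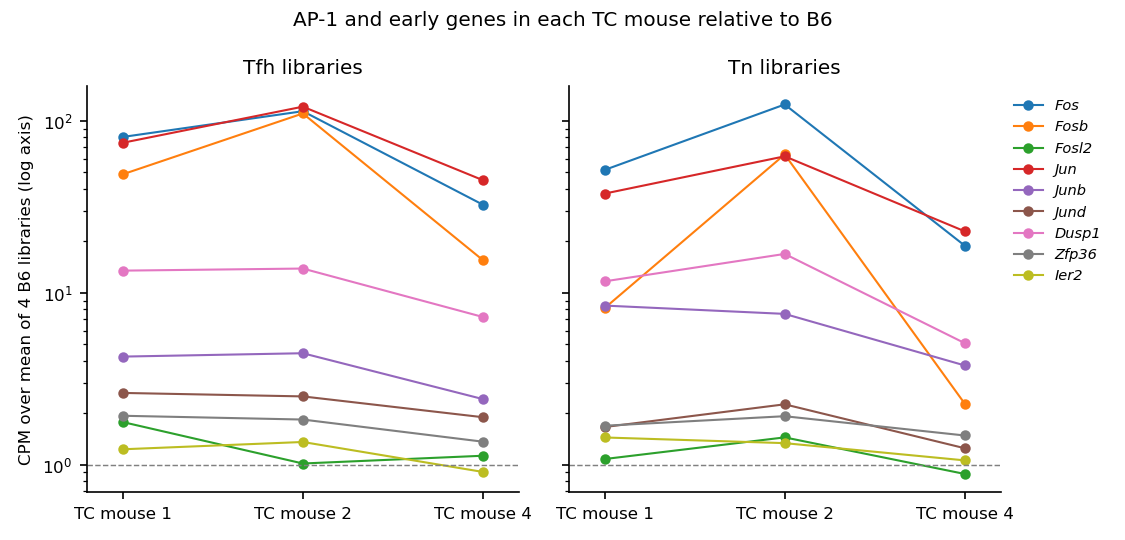
CPM of each member in each TC mouse, divided by the mean of the 4 B6 libraries of the same cell type (log axis; dashed line at 1). Lines join the values of 1 gene and carry no order of mice. Mouse 4 is lowest for 8 members in Tfh and 9 in Tn, and only Fosl2 in Tfh has another mouse lowest.

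The make-up of the AP-1 transcript pool was described per length, as CPM per kilobase of exon, so that genes could be set beside each other. The exons of all GENCODE transcripts of a gene were merged, which gave 9680 bases for Fosl2 and 6243 for Fosb. A merged length can exceed that of the transcript expressed, and the levels, orders and shares per kilobase depend on it. In B6 Tfh the order was Jund (156 ± 11.5, SD, n = 4), Junb (107 ± 10.2), Zfp36 (54.6 ± 1.81), Ier2 (49.5 ± 5.21), Dusp1 (16.7 ± 1.74), Fos (3.43 ± 0.371), Fosl2 (2.04 ± 0.332), Jun (1.11 ± 0.115) and Fosb (0.703 ± 0.028). Only Zfp36 and Ier2 were neighbours whose mean ± SD ranges met. In B6 Tn, Ier2 (81.3 ± 5.61) and Zfp36 (75.5 ± 6.09) stood above Junb (61.4 ± 4.86), and Fos (2.97 ± 0.438), Jun (2.85 ± 0.566) and Fosl2 (2.23 ± 0.116) were within reach of each other.

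In TC Tfh the order by mean per kilobase was Junb (395 ± 120, SD, n = 3), Jund (364 ± 60.7), Fos (259 ± 140), Dusp1 (192 ± 61.7), Zfp36 (93.3 ± 16.6), Jun (89 ± 42.3), Ier2 (57.6 ± 11.4), Fosb (40.9 ± 33.8) and Fosl2 (2.66 ± 0.832). Except for Dusp1 above Zfp36 and Fosb above Fosl2, no neighbours in this order differed beyond their SDs. In TC Tn, Junb (403 ± 151), Jund (269 ± 78.8) and Fos (193 ± 160) again led, with Jun at 117 ± 56.6 and Fosb at 7.6 ± 10.4. Fos thus stood in the sixth place in B6 and the third in TC in both cell types, and Fosl2 was in the ninth in TC.

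As a share of FOS family transcripts per kilobase, Fos made up 55.3% ± 3.19 (SD, n = 4) in B6 Tfh and 53.5% ± 2.74 in B6 Tn, against 86.8% ± 3.33 (n = 3) in TC Tfh and 95.5% ± 1.38 in TC Tn. Fosl2 made up 32.9% ± 3.52 and 40.4% ± 2.02 in B6, and 1.15% ± 0.701 and 1.9% ± 1.32 in TC. The lowest TC share of Fos was 83%, and the highest B6 share was 58.2%. Among JUN transcripts, Jun made up 0.424% ± 0.0675 and 1.3% ± 0.303 in B6 Tfh and Tn, and 10.2% ± 2.83 and 14.4% ± 3.03 in TC. Jund made up 59.2% ± 0.625 in B6 Tfh and 43.8% ± 5 in TC Tfh, and 70.9% ± 1.41 and 34.9% ± 5.19 in Tn, although its CPM was higher in TC. The summed FOS family amounted to 2.36% ± 0.303 of the summed JUN family in B6 Tfh and 2.52% ± 0.378 in B6 Tn, against 33.6% ± 13.1 in TC Tfh and 23.1% ± 14.5 in TC Tn. JUN transcripts were the more abundant in all 4 groups. These shares come from the same counts as the fold changes above and carry no test.

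**Figure D4:**
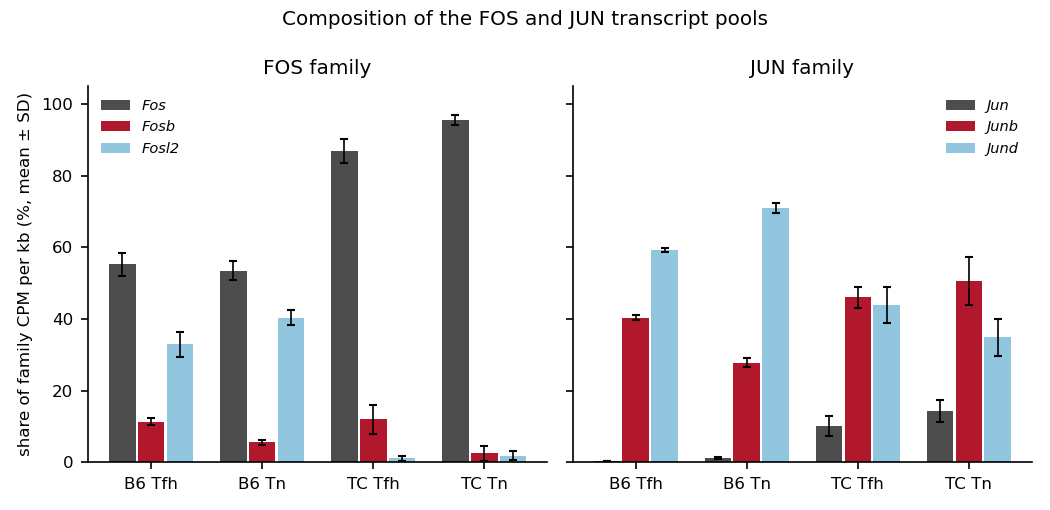
Share of each gene in the summed CPM per kilobase of its family (%, mean with SD bars; n = 4 B6 and 3 TC mice; Fosl1, at most 1.53%, is in the FOS sum and not drawn). Fos is at 53.5% and 55.3% in B6 and at 86.8% and 95.5% in TC, and Jun is at no more than 1.3% in B6 and at 10.2% and 14.4% in TC.

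The second question of the design was how Tfh differed from Tn within a strain. In B6, Junb and Dusp1 were higher in Tfh and Zfp36 and Ier2 were lower, 4 calls among 9 members, where 70.5% of all genes were called, 37.1% higher and 33.4% lower. Dusp1 was 3.79-fold higher (log2 fold change 1.92 ± 0.38, adjusted p = 0.000793) and Junb 1.74-fold (0.8 ± 0.25, adjusted p = 0.0134). Zfp36 was 1.38-fold lower (−0.47 ± 0.1, adjusted p = 0.000718) and Ier2 1.64-fold lower (−0.72 ± 0.12, adjusted p = 0.000166). Each of the 4 moved the same way in all 4 B6 mice: the Tfh to Tn ratio within a mouse was 3.57 to 4.37 for Dusp1, 1.71 to 1.8 for Junb, 0.681 to 0.766 for Zfp36 and 0.548 to 0.705 for Ier2. Fos (0.21 ± 0.82, adjusted p = 0.832), Fosl2 (−0.12 ± 0.18, adjusted p = 0.569) and Jund (0 ± 0.15, adjusted p = 0.983) did not pass.

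Jun and Fosb did not pass in B6, yet their B6 groups were separate. The Tfh to Tn ratio within a B6 mouse was 0.331 to 0.526 for Jun and 2.1 to 2.5 for Fosb. In all, 3 members were higher and 3 lower without overlap, as were 33.8% and 30.1% of all genes. The fit shares 1 estimate of spread over the 4 groups, and the TC libraries of both genes spread widely. For Jun the log2 fold change of −1.35 ± 0.58 had an adjusted p of 0.0595. It was −1.35 with adjusted p = 7.7e-09 in the fit with mouse as a block, 7.6e-06 with the B6 groups alone and 0.000438 in DESeq2. For Fosb the log2 fold change of 1.19 ± 1.7 had an adjusted p of 0.553, and 5.05e-06 with the B6 groups alone, and it passed neither with the block (adjusted p = 0.18) nor in DESeq2 (adjusted p = 0.214).

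In TC, Dusp1, Fosb and Jund were called higher and Zfp36 and Ier2 lower in Tfh than in Tn, 5 calls among 9 members, where 66.2% of all genes were called, 33.8% higher and 32.4% lower. Dusp1 was 3.92-fold higher (1.97 ± 0.36, adjusted p = 0.000616), with ratios within a mouse of 4.38, 3.13 and 5.39. Zfp36 was 1.37-fold lower (−0.45 ± 0.11, adjusted p = 0.00277, and 0.0542 with the TC groups alone) and Ier2 1.8-fold lower (−0.85 ± 0.14, adjusted p = 0.000149). Without overlap, Dusp1 was higher and Zfp36 and Ier2 were lower, and 35.7% and 35.6% of all genes did so in either direction.

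Fosb was 5.46-fold higher in TC Tfh than in TC Tn (2.45 ± 0.92, adjusted p = 0.0364), with ratios of 13.7, 3.95 and 15.6 in mice 1, 2 and 4. The groups overlapped, and the call was lost without TC Tfh 1 (adjusted p = 0.0522), TC Tfh 2 (log2 fold change 1.62, adjusted p = 0.153), TC Tn 1 (adjusted p = 0.112) or TC Tn 4 (adjusted p = 0.0786). It was lost too with the TC groups alone (adjusted p = 0.206). The value was 4.67 (adjusted p = 0.000802) without TC Tn 2. Jund was 1.36-fold higher (0.44 ± 0.18, adjusted p = 0.0442), a call lost without any 1 of 7 libraries (B6 Tn 1, 3 and 4, TC Tfh 1 and 2, TC Tn 1 and 4; adjusted p from 0.0522 to 0.141) and with the TC groups alone (adjusted p = 0.185). Both genes were nonetheless higher in Tfh in each of the 3 mice, Jund by 1.57, 1.11 and 1.51 times.

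Fos, Jun, Junb and Fosl2 did not pass in TC. Fos was at 0.43 ± 0.57 (adjusted p = 0.529), with ratios of 1.8, 1.06 and 2.01 in the 3 mice, and passed with mouse as a block (0.64, adjusted p = 0.0145) and without TC Tn 2 (1.31, adjusted p = 0.0477). It was −0.01 without TC Tn 4 and 0.04 without TC Tfh 2. Jun was at −0.39 ± 0.37 (adjusted p = 0.376), with ratios of 0.768, 0.757 and 0.772, and passed with the block (−0.38, adjusted p = 3.64e-05). Junb was at −0.03 ± 0.28 (adjusted p = 0.931), with ratios of 0.878, 1.03 and 1.11, and Fosl2 at 0.09 ± 0.21 (adjusted p = 0.726).

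Whether the strain difference itself differed between the cell types was tested by the interaction, positive where the Tfh to Tn ratio is higher in TC. No member was called by edgeR or DESeq2, where 2.1% of all genes were called by edgeR (0.864% higher, 1.24% lower). At an unadjusted p below 0.05 the count was 0 higher and 1 lower, Junb. Junb was at −0.83 ± 0.37 (adjusted p = 0.346), Jun at 0.96 ± 0.7 (adjusted p = 0.614) and Jund at 0.44 ± 0.24 (adjusted p = 0.44). With mouse as a block these 3 were called: Junb at −0.8 (adjusted p = 3.99e-05), Jun at 0.96 (adjusted p = 0.000176) and Jund at 0.47 (adjusted p = 0.0254). The calls over all genes rose from 282 to 712 in that fit. The ratios within mice did not overlap between the strains for these 3 genes: those of Junb were all at least 1.71 in B6 and at most 1.11 in TC, those of Jun at most 0.526 and at least 0.757, and those of Jund at most 1.04 and at least 1.11. Without both libraries of TC mouse 4, Junb passed in the fit without a block too (−0.87, adjusted p = 0.00367).

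Other genes of the pathway were taken from 6 lists, also chosen with earlier results of these data known. Their counts stand beside the shares of all genes called in TC against B6. These were 24.7% higher and 25.9% lower in Tfh, and 25.8% and 26.1% in Tn. Among 20 other bZIP genes tested, 7 were higher and 5 lower in TC Tfh than in B6 Tfh, and 5 and 5 in Tn (median log2 fold change 0.06 and −0.01). Mafg, a small MAF partner, was 1.56-fold higher in TC Tfh (adjusted p = 6.51e-06), Atf7 was 1.46-fold higher in Tfh (adjusted p = 1.5e-05) and 1.69-fold in Tn (adjusted p = 3.06e-07). Atf6, a sensor of endoplasmic reticulum stress, was 2.51-fold lower in TC Tn (adjusted p = 3.76e-06) and 1.36-fold lower in TC Tfh (adjusted p = 0.0025). Batf, which pairs with JUN proteins in T helper cells, was 1.22-fold lower in TC Tn (adjusted p = 0.0291) and 1.18-fold lower in TC Tfh (adjusted p = 0.0356). In either strain Batf was higher in Tfh than in Tn, 4.86-fold in B6 (adjusted p = 1.34e-12) and 5.03-fold in TC (adjusted p = 1.28e-11).

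Of 25 kinases, ternary complex factors and coactivators upstream of AP-1, 8 were higher and 4 lower in TC Tfh, and 8 and 5 in TC Tn (median 0.08 and 0.12). In either direction 50.7% and 51.9% of all genes were called, so this list was near that share. Elk1, a ternary complex factor that binds beside serum response factor, was 1.65-fold higher in Tfh (adjusted p = 1.02e-05) and 1.83-fold in Tn (adjusted p = 1.54e-06). Map2k2, the MEK2 kinase, was 1.22-fold (adjusted p = 0.000323) and 1.25-fold (adjusted p = 0.00011) lower. No named gene of this list differed by more than 1.83-fold between the strains.

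Of 30 other early response genes, 15 were higher and 2 lower in TC Tfh, and 11 and 3 in TC Tn, with medians of 0.45 and 0.31. Of all genes, 24.7% were higher and 25.9% lower in Tfh, and 25.8% and 26.1% in Tn. Klf4, a zinc-finger factor, was 11.6-fold higher in TC Tfh (adjusted p = 0.000228) and 5.47-fold in TC Tn (adjusted p = 0.0372). Rgs2, an inhibitor of G protein signalling, was 5.68-fold higher in TC Tfh (adjusted p = 5.58e-05) and 3.25-fold in TC Tn (adjusted p = 0.000558). Ppp1r15a, the GADD34 subunit that restores translation after stress, was 5.87-fold higher in TC Tn (adjusted p = 7.64e-05) and 4.31-fold in TC Tfh (adjusted p = 0.000451). Klf4, Rgs2 and Ppp1r15a were not called by the interaction. In the other direction, Egr2 was 1.59-fold lower (adjusted p = 1.51e-05) and Nr4a3 1.46-fold lower (adjusted p = 0.0046) in TC Tn. Both are induced by antigen receptor signalling. So are Nr4a2 and Nr4a1, singled out after their values were seen, which were 3.37-fold (adjusted p = 0.000443) and 1.36-fold higher (adjusted p = 0.00736) in TC Tfh. Nr4a2 was at 33.7, 39.3 and 13.9 CPM in TC Tfh and at 6.79 to 10.2 CPM in B6 Tfh, with mouse 4 the lowest TC mouse. In Tn neither passed (Nr4a2 0.98 ± 0.62, adjusted p = 0.214; Nr4a1 0.26 ± 0.12, adjusted p = 0.0933).

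Egr1, an early gene of the same receptor pathway singled out after its values were seen, barely differed between the strains. It was at 234, 234, 275 and 242 CPM in B6 Tfh and at 272, 312 and 247 CPM in TC Tfh (log2 fold change 0.17 ± 0.07, adjusted p = 0.0489). In Tn it was at 124, 124, 124 and 123 CPM in B6 against 120, 125 and 115 CPM in TC (−0.04 ± 0.07, adjusted p = 0.645). The Tn libraries of both strains thus held nearly the same Egr1 level while their Fos levels did not overlap.

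Among the ZFP36 family and its partners in deadenylation, 4 of 9 tested were higher and 2 lower in TC Tfh, and 3 and 3 in TC Tn (median 0.04 and 0.03). In either direction 50.7% and 51.9% of all genes were called. Zfp36l2 was 1.67-fold higher in Tfh (adjusted p = 4.52e-05) and 2.44-fold in Tn (adjusted p = 1.52e-07), and Zfp36l1 1.56-fold (adjusted p = 1.01e-05) and 1.46-fold (adjusted p = 3.48e-05). Mapkapk2, the kinase that inactivates tristetraprolin, was 1.43-fold lower in Tfh (adjusted p = 1.3e-05) and 1.45-fold lower in Tn (adjusted p = 7.53e-06).

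Of 12 cytokine and activation genes known as AP-1 targets, 3 were higher and 2 lower in TC Tfh, and 1 and 2 in TC Tn (median −0.02 and 0.06). In either direction 50.7% and 51.9% of all genes were called. Il4 was 1.9-fold higher in TC Tfh (adjusted p = 4.99e-05) and Il21 1.31-fold (adjusted p = 0.00285), and Tnfrsf4, encoding OX40, was 1.55-fold lower in Tfh (adjusted p = 4.93e-05) and 1.43-fold lower in Tn (adjusted p = 0.00208). Il2, singled out after its values were seen, was at 0.522 to 1.66 CPM in B6 Tfh and 0.967 to 1.39 CPM in TC Tfh, which overlapped (0.01 ± 0.31, adjusted p = 0.975). Against Tn, 12 of the 12 were higher in B6 Tfh and 11 in TC Tfh. Of all genes, 37.1% were higher and 33.4% lower in B6 Tfh, and 33.8% and 32.4% in TC Tfh. Icos and Il21 of this list are also Tfh markers and Il2ra a regulatory T cell marker, so the count partly restates marker levels. The bZIP list had 10 higher and 8 lower in Tfh in either strain, the upstream list 8 and 11 in B6 and 8 and 10 in TC, and the early response list 16 and 5 in B6 and 16 and 7 in TC. The ZFP36 list had 3 higher and 5 lower in B6 and 2 and 4 in TC, and the heat shock list 0 and 4 in B6 and 0 and 3 in TC.

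**Figure D5:**
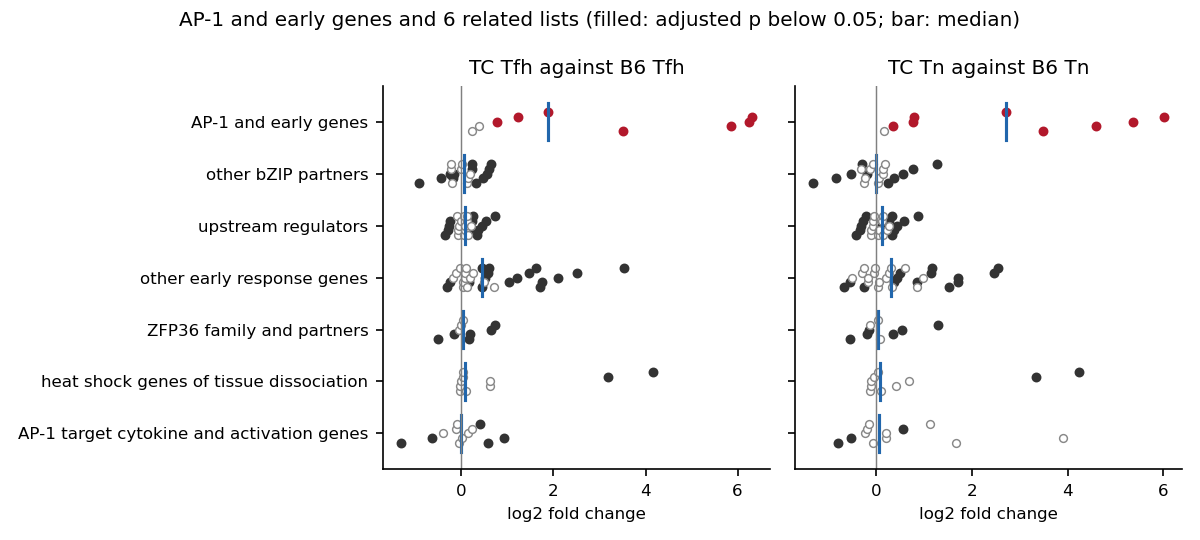
Log2 fold changes of TC against B6 in Tfh (left) and Tn (right) for the members and the 6 related lists. Each point is a gene tested, filled where the adjusted p is below 0.05, and vertical bars are medians. The median of the members is 1.89 in Tfh and 2.72 in Tn, and those of the lists lie between −0.02 and 0.45.

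Heat shock genes, which together with AP-1 genes can rise during tissue handling, were the sixth list. Of 10 tested, 2 were higher and 0 lower in TC in each cell type (median 0.07 in both), where 24.7% of all genes were higher in Tfh and 25.8% in Tn. The 2 were Hspa1a, 18-fold higher in Tfh (adjusted p = 0.000316) and 18.7-fold in Tn (adjusted p = 0.00207), and Hspa1b, 9.15-fold (adjusted p = 0.0013) and 10.1-fold (adjusted p = 0.0028). Their levels stayed low: Hspa1b was at 0.506 to 2.6 CPM in B6 Tfh and at 6.28, 15.8 and 23.9 CPM in TC mice 1, 2 and 4. In TC Tn, Hspa1b was at 3.95, 14.5 and 13.5 CPM in mice 1, 2 and 4. It was thus lowest in mouse 1 in both cell types, and highest in mouse 4 in Tfh and in mouse 2 in Tn. Fos and Jun were lowest in mouse 4 and highest in mouse 2 in both cell types. The part of the heat shock genes in the members' difference was not tested.

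Marker levels of other cells were read beside the strain difference. The 7 B cell markers summed to 155 to 163 CPM in B6 Tfh and 152 to 173 CPM in TC Tfh, and to at most 7.24 CPM in any Tn library. The 8 myeloid markers summed to 8.83 to 23 CPM in B6 Tfh, 3.71 to 6.85 in TC Tfh, 8.95 to 14.4 in B6 Tn and 9.08 to 13.9 in TC Tn. Of the 8, 7 had counts in each B6 group and 6 in each TC group: Cd14 was at 0 in B6 and in TC Tn, S100a8 in TC and S100a9 in TC Tfh. Fos was at 131 to 916 CPM in the TC libraries. The 4 NK cell markers, of which Ncr1 was at 0, summed to 35.7 to 66.1 CPM in B6 Tfh and 19.7 to 31.1 CPM in TC Tfh. The 5 regulatory T cell markers summed to 1746 to 2143 CPM in B6 Tfh and 2361 to 2816 in TC Tfh, without overlap, and to 88 to 132 CPM in the Tn libraries of both strains. Ribosomal protein genes took 3.59% to 4.73% of counts in B6 Tfh and 2.9% to 2.98% in TC Tfh, and 8.08% to 9.51% and 6.19% to 6.75% in Tn. The part of these differences in the members' values was not tested.

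Genes that moved most like Fos, Jun and Junb within groups were ranked by Pearson correlation of log2 CPM minus the group mean, over 14 libraries and 9793 genes. For Fos they were Fosb (r = 0.966), Dusp1 (0.951), Tagap (0.95), Hexim1 (0.942) and Pnrc1 (0.934). For Jun they were 1810026B05Rik (0.952), Morf4l2 (0.91), Fos (0.909), Klf6 (0.906) and Hexim1 (0.903). For Junb they were Tnfaip3 (0.985), Tgif1 (0.956), Ppp1r15a (0.945), Pim1 (0.936) and Sik1 (0.918). Among the members, Fosl2 was the least like Fos (r = 0.522), Jun (0.344) and Junb (0.472). The points share mice across cell types, and the 3 TC mice carry most of the spread.

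Tagap, a GTPase-activating protein of activated T cells, shows how likeness within groups differs from a strain difference. Its TC Tn values were 158, 209 and 84.6 CPM, in the mouse order of Fos, against 79.2 to 92.8 CPM in B6 Tn. Its strain difference was 1.71-fold in Tn (adjusted p = 0.0171) and did not pass in Tfh (0.18 ± 0.24, adjusted p = 0.566). Tnfaip3, encoding the NF-kB inhibitor A20, was 3.06-fold higher in TC Tfh (adjusted p = 0.00276) and 2.89-fold in TC Tn (adjusted p = 0.00385), with mouse 4 the lowest TC mouse in both (320 CPM against 713 and 725, and 141 CPM against 378 and 398).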

How the data were processed

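RNA was isolated by column and libraries were made with a stranded kit, per the labels' protocols. STAR 2.7, the genome build mm10 and DESeq2 are named in the submitters' processing notes. The deposited table holds the authors' raw read counts, 1 column per library and 1 row per symbol. How reads were counted, with which annotation and strand setting, is not given in the sources used here. TC reads were aligned to the B6 genome, with no correction for TC sequence.

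Genes passed filterByExpr (count minimum 10; 13427 of 26683) and were fitted with edgeR 4.0.16 in R 4.3.3 (TMM, robust quasi-likelihood, 1 mean for each of 4 groups). The threshold for a call was 0.05 for the p-value after Benjamini-Hochberg adjustment. Fold changes carry SE = |log2 fold change| / square root of F. CPM were scaled by TMM factors. DESeq2 1.42.0 and limma 3.58.1 (voom, consensus correlation 0.225) gave alternatives. The fits were tested on simulated data. In the group comparisons they recovered 64% to 68% of 1.5-fold, 66% to 74% of 2-fold and 92% to 94% of 4-fold changes. For the interaction it was 56%, 62% and 88%. Each simulated gene had the same spread in all groups, whereas the members spread more in TC than in B6. Replicates are separate mice. No pair of libraries in a group was close enough to be a duplicate (chi-square per degree of freedom 4.7 to 19.3).

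Tfh and Tn came from the spleen of each mouse, so numbers pair libraries within a strain. Deviations from group means correlated at 0.0395 to 0.299 between the libraries of a mouse, and for 12 of 14 libraries the best match was the other library of that mouse. Named genes were all members, up to 3 genes per list and direction with the smallest adjusted p, of which examples are printed, and the 5 genes most like Fos, Jun and Junb (mean of at least 5 CPM, prior count 2). Members and lists were chosen with earlier results of these data known. Alternatives were size factors, count filters, tool, fitted groups, the mouse block and leaving out each library. The older quasi-likelihood method and leaving out both libraries of a TC mouse were added after seeing the data. Promoter sequences are from RefSeq (GRCm38.p6), with 9 of 10 members matched.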

Additional observations from a re-analysis of the deposited data

Results flagged for a closer look

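The strain difference of 3 genes from the related lists differed between Tfh and Tn by the interaction test, which called 2.1% of all genes tested. These were 1 of 20 bZIP genes tested, and 1 higher and 1 lower of 30 early response genes. In the other lists none was called. For Egr2 the interaction was 0.55 ± 0.12 on the log2 scale (SE, edgeR adjusted p = 0.0219), with −0.12 ± 0.07 in Tfh (adjusted p = 0.165) and −0.67 ± 0.09 in Tn (adjusted p = 1.51e-05) for TC against B6. For Atf6 it was 0.88 ± 0.19 (adjusted p = 0.0231), with −0.45 in Tfh (adjusted p = 0.0025) and −1.33 in Tn (adjusted p = 3.76e-06). For Dusp2 it was −0.77 ± 0.13 (adjusted p = 0.00389), with 0.09 ± 0.09 in Tfh (adjusted p = 0.437) and 0.86 ± 0.09 in Tn (adjusted p = 1.39e-06). Among the 9 members tested, no B6 library stood apart from the other 3 of its group in the 18 groups of 4 that were checked, where chance gives about 1 in 20.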

How the results depend on the processing

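Of 1071 values of single members recomputed under the alternatives, 977 kept their sign and their side of the threshold, 29 lost the call, 23 gained one, 42 uncalled values changed sign and 0 called values reversed. Of the 29 losses, 18 were in TC Tfh against TC Tn and 11 in TC Tn against B6 Tn, where they concerned Fosb and Ier2. The count of members called in TC Tfh against TC Tn, 5, was 3 with no filter on low counts, 2 with only the TC groups in the fit and 3 without both libraries of TC mouse 1, and 3 to 6 when a library was left out. Members called were 7 to 8 in TC Tfh against B6 Tfh, 6 to 8 in TC Tn against B6 Tn and 4 to 5 in B6 Tfh against B6 Tn when a library was left out. The interaction calls over all genes, 282, were 535 in DESeq2, 712 with mouse as replicate block, 122, 151 and 125 without TC mouse 1, 2 or 4, and 137 to 299 when a library was left out. Its members called, 0, were 3 with the block and 1 without TC mouse 4. With the block, Jun was also called in both Tfh against Tn comparisons and Fos in TC, Fosb was lost in TC Tn against B6 Tn, and no other call on a member changed. The median of all genes moved by less than 0.1 on the log2 scale under any scaling tried. The older quasi-likelihood method called Jun in B6 Tfh against Tn (adjusted p = 0.0488). With 3 TC mice of unequal level, the sizes for Fos, Fosb and Jun are imprecise, and Atf3 is limited by depth.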
